A study of Homo sapiens with 12 samples.

Results

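HIPK3, EMP2, LSM14A, TMEM170B, CLIC4, LBH and THG1L are 7 genes outside the extracellular matrix whose transcripts stood far higher after depletion of either of a pair of SIN3 complex subunits. They were chosen by their measured changes: earlier work on these same arrays had found them among the largest rises common to both knockdowns. They are 7 of 18621 genes tested, and 17 of the 54675 probe sets on the array are annotated to them and to no other gene. Their own changes are therefore described without a test.

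A549 cells, a human lung adenocarcinoma line, were transfected with 50 nM siRNA (small interfering RNA) 1 day after plating and lysed 3 days after transfection, in 4 groups of 3 arrays. The FAM60A knockdown received an siRNA against FAM60A (current symbol SINHCAF) and was set against its own 3 cultures with a non-targeting siRNA. The SDS3 knockdown received an siRNA against SDS3 (current symbol SUDS3) and was set against 3 other non-targeting cultures. The labels name 1 siRNA for FAM60A and 1 non-targeting siRNA, and their protocol text does not describe the SDS3 siRNA, which only the titles and descriptions give. All 6 control arrays carried the non-targeting siRNA, no knockdown array did, and no untransfected cells were analysed here. For the 7 genes, removal of a subunit and absence of the non-targeting siRNA cannot be told apart in this design. The labels mention wells plated in triplicate and no independent cultures, so each p-value reflects variation between these arrays alone, part of which may be technical. RNA was taken from whole wells, so a change in the share of cells making a transcript and a change in RNA per cell cannot be told apart.

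SIN3 is a scaffold that carries histone deacetylases to promoters and enhancers, where removal of acetyl groups lowers transcription. The products of FAM60A and SDS3 both belong to the branch of this complex built on the class I deacetylases. DNA-binding repressors bring the complex to its targets, among them MXD proteins, which bind the E-box CACGTG with MAX, and KLF family proteins, which bind GC-rich boxes. The 7 listed genes share no protein family. HIPK3 encodes a homeodomain-interacting nuclear protein kinase. EMP2 encodes a membrane protein of the PMP22 family with a prominent place in lung epithelium, where it acts on integrins and caveolae. LSM14A is an RNA-binding protein of P-bodies, the cytoplasmic sites of decapping and translational repression. TMEM170B is a little-studied multipass membrane protein, CLIC4 an intracellular chloride channel protein linked to actin and TGF-beta signalling, LBH a small transcription cofactor induced by WNT signalling, and THG1L the enzyme that adds a guanylate to the 5' end of histidine tRNA.

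The start-site sequences of the listed genes are shown because they differ widely in base composition. RefSeq's promoter table held 9 start-site entries for 6 of the 7 genes, 3 for HIPK3 and 2 for THG1L. LSM14A was not matched. Each line gives the 250 bases before the first listed start, 5' to 3', in lower case, with matches to the searched motifs in capitals.
HIPK3, GRCh38.p14 chr11:33256422-33256671, plus strand: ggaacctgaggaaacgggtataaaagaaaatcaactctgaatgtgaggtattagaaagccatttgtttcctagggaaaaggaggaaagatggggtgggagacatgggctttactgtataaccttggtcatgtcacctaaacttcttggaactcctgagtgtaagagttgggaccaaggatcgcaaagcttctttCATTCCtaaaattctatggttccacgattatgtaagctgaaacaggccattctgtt
EMP2, GRCh38.p14 chr16:10580599-10580848, minus strand: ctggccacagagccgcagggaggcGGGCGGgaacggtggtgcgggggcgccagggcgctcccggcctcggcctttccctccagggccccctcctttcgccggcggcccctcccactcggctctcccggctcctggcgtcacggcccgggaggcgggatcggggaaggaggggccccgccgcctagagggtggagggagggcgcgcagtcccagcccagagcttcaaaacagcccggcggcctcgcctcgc
TMEM170B, GRCh38.p14 chr6:11537499-11537748, plus strand: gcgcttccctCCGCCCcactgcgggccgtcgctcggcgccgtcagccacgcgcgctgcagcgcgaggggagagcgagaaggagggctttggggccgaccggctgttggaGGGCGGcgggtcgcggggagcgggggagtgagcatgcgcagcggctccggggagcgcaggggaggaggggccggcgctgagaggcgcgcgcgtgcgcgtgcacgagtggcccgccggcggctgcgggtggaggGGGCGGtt
LBH, GRCh38.p14 chr2:30231284-30231533, plus strand: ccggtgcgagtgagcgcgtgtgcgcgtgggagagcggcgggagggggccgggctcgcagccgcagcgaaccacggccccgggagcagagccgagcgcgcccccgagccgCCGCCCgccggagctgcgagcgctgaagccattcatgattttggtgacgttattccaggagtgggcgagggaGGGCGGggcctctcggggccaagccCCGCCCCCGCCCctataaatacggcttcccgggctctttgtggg
THG1L, GRCh38.p14 chr5:157731170-157731419, plus strand: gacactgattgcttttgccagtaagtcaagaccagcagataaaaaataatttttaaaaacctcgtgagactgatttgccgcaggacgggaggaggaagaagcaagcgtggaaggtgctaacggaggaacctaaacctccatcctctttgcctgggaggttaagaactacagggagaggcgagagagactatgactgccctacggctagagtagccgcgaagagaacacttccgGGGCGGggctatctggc

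Both strands were searched for the E-box CACGTG and for the motif GGGCGG. The AP-1 site TGANTCA was searched next, together with the motif GGAATG, which TEAD proteins bind. GGGCGG, which SP and KLF proteins bind, was found before 8 of the 9 entries and in all 6 genes matched, while 42.6% of the 35114 promoters in the table hold it in the same window. That share counts single entries and was not matched for GC content, so no enrichment is read from it. The capitals in the EMP2, TMEM170B, LBH and THG1L lines are all GC boxes, on either strand. LBH has 4 of them, and the copies that begin 44 and 38 bases before its start follow each other without a gap. The only capitals in the HIPK3 line are a GGAATG match on the opposite strand, beginning 56 bases before that start. The second HIPK3 entry has 5 GC boxes, the third has 1 and CLIC4 has 2. CACGTG and TGANTCA were found in none of the 9 windows, against 6.35% and 6.57% of all promoters. GGAATG was found in 1 of the 9, against 11.9%.

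CpG content separated the starts further. The median over all promoters was 11 CpG dinucleotides in 250 bases and a GC content of 58%. The windows of TMEM170B and of the second HIPK3 start each held 39 CpG, that of LBH 32, CLIC4 30 and EMP2 27. By contrast the first HIPK3 start had 3 CpG and a GC content of 42%, and the first THG1L start had 11 CpG and 51.2%. The arrays do not tell which start was in use.

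HIPK3 read about 5 to 6 times higher in either knockdown on its brightest probe set, and less so or not at all on its other probe sets. On the log2 scale its brightest probe set (226297_at) read 10.16, 10.04 and 10.09 in the FAM60A controls and 12.59, 12.50 and 12.47 in the FAM60A knockdown. It read 9.48, 9.45 and 9.56 in the SDS3 controls and 12.07, 11.87 and 12.25 in the SDS3 knockdown. No knockdown array came near a control array, and the most variable group, the SDS3 knockdown, had an SD of 0.192. The difference from control was 2.42 (SE 0.0593, n = 3 against 3, 5.35-fold) for FAM60A and 2.57 (SE 0.0918, 5.93-fold) for SDS3. Of all tested genes only NID1, a basement membrane gene, and TAGLN, an actin-binding gene, had a larger value for the smaller of the 2 changes.

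EMP2 differed by nearly the same amount in both knockdowns on its brightest probe set (225079_at). Its log2 signals were 9.25, 9.07 and 9.24 in the FAM60A controls against 11.48, 11.40 and 11.43 in that knockdown, and 8.27, 8.10 and 8.15 in the SDS3 controls against 10.26, 10.34 and 10.33. The knockdown arrays of each experiment lay close together (SD 0.0375 and 0.0438) and clear of the controls. The log2 difference was 2.25 (SE 0.0644, 4.76-fold) for FAM60A and 2.14 (SE 0.0599, 4.40-fold) for SDS3.

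LSM14A was close to 4-fold higher in both on its brightest probe set over the 12 arrays (212131_at), and less so on its other probe sets. It read 10.46, 10.17 and 10.34 in the FAM60A controls and 12.27, 12.29 and 12.30 in the knockdown. The SDS3 controls read 9.96, 9.89 and 9.77 and the SDS3 knockdown 11.89, 11.75 and 11.97. The groups did not overlap, and the FAM60A knockdown arrays had an SD of 0.0120. The log2 difference was 1.97 (SE 0.0720, 3.91-fold) and 2.00 (SE 0.0737, 3.99-fold).

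TMEM170B started close to the level filter of log2 5. Its single probe set read 5.74, 5.34 and 5.77 in the FAM60A controls and 7.18, 7.70 and 7.83 in the knockdown. The SDS3 controls read 5.29, 5.28 and 5.41 and the SDS3 knockdown 7.68, 7.65 and 7.62. FAM60A knockdown replicate 1 was the lowest of its group, yet lay above every control. The log2 difference was 1.95 (SE 0.157, 3.87-fold) for FAM60A, the least precise of the 14 values, and 2.32 (SE 0.0557, 5.00-fold) for SDS3. The closeness of its control level to the filter limits both values.

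CLIC4 differed less in the FAM60A knockdown than in the SDS3 knockdown on its brightest probe set. It read 9.74, 9.66 and 9.79 in the FAM60A controls against 11, 11.20 and 11.14, and 9.14, 9.16 and 9.18 in the SDS3 controls against 11.26, 11.15 and 11.35. The log2 difference was 1.39 (SE 0.0672, 2.62-fold) for FAM60A and 2.09 (SE 0.0612, 4.27-fold) for SDS3. No arrays overlapped between knockdown and control in either experiment.

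LBH had the opposite order. Its single probe set, of the shared-sequence class (_s_at), read 10.25, 10.07 and 10.10 in the FAM60A controls against 12.62, 12.68 and 12.73. In the SDS3 experiment it read 11.10, 11.40 and 11.34 in the controls against 13.26, 13.23 and 13.17. Every knockdown array lay above every control array of its experiment. The log2 difference was 2.54 (SE 0.0638, 5.80-fold) for FAM60A and 1.94 (SE 0.0807, 3.84-fold) for SDS3.

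THG1L, also read by 1 probe set of the shared-sequence class, was 3-fold to 4-fold higher. It gave 8.40, 8.23 and 8.29 in the FAM60A controls against 9.68, 10.08 and 10.04, and 7.22, 7.30 and 7.17 in the SDS3 controls against 9.25, 9.34 and 9.26. FAM60A knockdown replicate 1 was the low array of its group, as for TMEM170B. The log2 difference was 1.63 (SE 0.0991, 3.09-fold) and 2.05 (SE 0.0574, 4.15-fold).

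**Figure D1:**
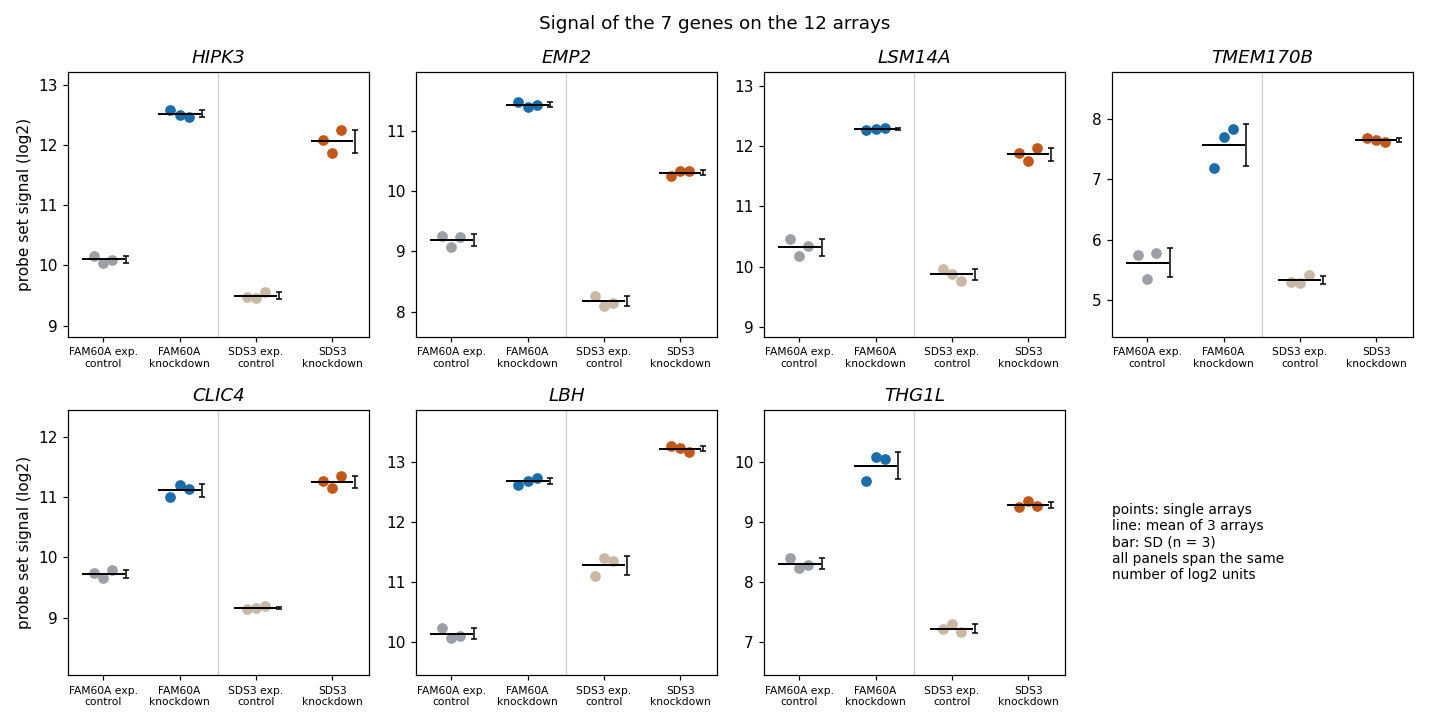
Log2 probe set signal of the brightest probe set of each listed gene on the 12 arrays (vertical axes, each spanning the same number of log2 units), by group. Points are single arrays, lines the mean of 3 and bars the SD; in every panel the knockdown arrays lie above the controls of their own experiment, with LBH at 13.17 to 13.26 in the SDS3 knockdown.

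All 7 genes had the 3 knockdown arrays above the 3 controls in the FAM60A experiment, as did 23.7% of all tested genes, and all 7 in the SDS3 experiment, as did 22.4%. Since the genes were listed for their rise in these contrasts, nothing is read from these counts. The median log2 difference of the 7 was 1.97 for FAM60A (range 1.39 to 2.54) beside -0.023 over all tested genes, and 2.09 for SDS3 (range 1.94 to 2.57) beside 0.0064. The mean over all probe sets of a gene, in place of the brightest, lowered these medians to 1.53 and 1.52. A log2 difference of 1 or more was seen in 1.26% of tested genes for FAM60A, in 0.929% for SDS3 and in 94 genes, or 0.505%, for both.

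The order of the genes differed between the knockdowns. With FAM60A depletion it ran from LBH through HIPK3, EMP2, LSM14A, TMEM170B and THG1L to CLIC4. LSM14A and TMEM170B lay closer together there than either one's SE. With SDS3 depletion it ran from HIPK3 through TMEM170B, EMP2, CLIC4, THG1L and LSM14A to LBH, and from EMP2 to LBH each gap between neighbours was smaller than the larger SE of the pair. The SDS3 change minus the FAM60A change was 0.71 for CLIC4 (SE 0.0924), -0.60 for LBH (SE 0.106), 0.43 for THG1L (SE 0.126) and 0.37 for TMEM170B (SE 0.195). It was 0.15 for HIPK3 (SE 0.113), -0.11 for EMP2 (SE 0.0883) and 0.03 for LSM14A (SE 0.108). These differences come from the contrasts that chose the genes and were not tested.

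The listing has no stated threshold, and the 7 genes are not an unbroken run. Ranked by the smaller of the 2 changes on the brightest probe set, HIPK3 to LBH hold places 3 to 7, THG1L place 15 and CLIC4 place 28 of 18621. The non-listed genes with the highest values were NID1 (3.27) and TAGLN (2.69), then STEAP3 (1.85), an endosomal iron reductase gene, PXYLP1 (1.82) and TDO2 (1.81), which encodes tryptophan dioxygenase. CLIC4, at 1.39, lay between GNB1 (1.40), a G protein subunit gene, and AGO4 (1.38), an Argonaute gene. The last 2 were chosen after their values were seen.

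**Figure D2:**
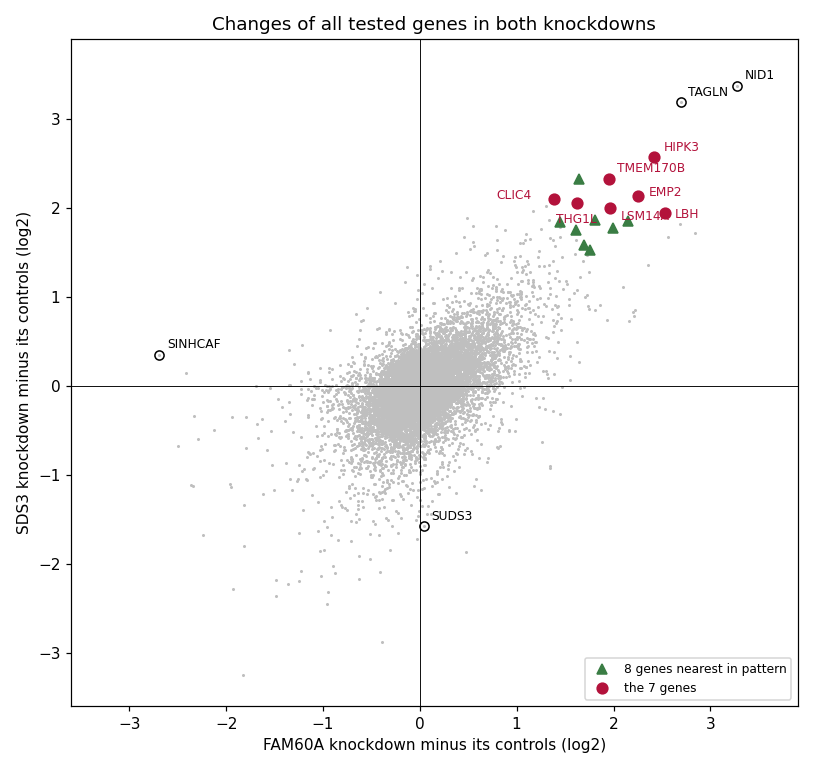
Log2 change (knockdown minus its controls) in the FAM60A experiment (horizontal) and the SDS3 experiment (vertical) for all 18621 tested genes. Red circles are the 7 listed genes, green triangles the 8 unlisted genes nearest to them in pattern, and open circles NID1, TAGLN and the siRNA targets; the listed genes lie between 1.39 and 2.54 on the horizontal axis and between 1.94 and 2.57 on the vertical.

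Likeness to the 7 was measured as the root mean square distance, over 12 arrays, between a gene's log2 value minus its experiment's control mean and the average of the same over the 7. The listed genes themselves ran from 0.105 (LSM14A) to 0.320 (CLIC4). Each of the 7 is part of that average, so their distances are not on equal terms with those of other genes. The nearest other genes were STEAP3 (0.194), the secretory carrier membrane protein gene SCAMP1 (0.208), TDO2 (0.221) and the myosin light chain gene MYL9 (0.243). YWHAH, a 14-3-3 protein gene, followed at 0.297, the coronin gene CORO2B at 0.340, the magnesium transporter gene SLC41A1 at 0.341 and the talin gene TLN1 at 0.354.

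Probe sets of the same gene did not all report the same size of change. Of the 17 probe sets, 12 were at least 2-fold higher in both knockdowns, and 13 had all knockdown arrays above all controls in both, as did 12.1% of all tested genes. LBH, TMEM170B and THG1L have 1 probe set each, so their values have no second reading.

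HIPK3 has 4 probe sets, which did not give the same change. Beside 226297_at, 210148_at was 2.16 (FAM60A) and 1.60 (SDS3) higher on the log2 scale. The third, 207764_s_at, read 6.25, 6.09 and 6.06 in the FAM60A controls against 6.86, 7.0 and 6.98, a difference of 0.81 (SE 0.0720). In the SDS3 experiment it read 5.26, 5.24 and 5.11 against 5.39, 5.24 and 5.20, and the groups overlapped (difference 0.08, SE 0.0741). The fourth, 213697_at, lay between 5.12 and 5.80 on all 12 arrays, with differences of -0.06 and 0.09. Its signals, and those of 207764_s_at in the SDS3 experiment, lay close to the level filter of log2 5, which limits these readings.

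EMP2 has 3 probe sets that moved together and 1 that did not. Those at 225078_at and 204975_at were 2.12 and 1.78 higher with FAM60A depletion and 1.91 and 1.61 higher with SDS3 depletion. In the FAM60A controls 204975_at was close to 225079_at (9.16 against 9.19), and in the SDS3 controls it was brighter (8.40 against 8.17). The remaining one, 238500_at, read 6.92 to 7.01 on the 6 FAM60A arrays and 6.02 to 6.31 on the 6 SDS3 arrays, with differences of -0.03 and 0.17. It was the dimmest of the EMP2 probe sets.

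LSM14A was higher on all 3 of its probe sets, by unequal amounts. Against 1.97 and 2.00 for 212131_at, 212132_at gave 0.82 (SE 0.0836) for FAM60A and 1.37 (SE 0.0635) for SDS3. In the controls 212132_at was brighter than 212131_at (10.81 against 10.32 for FAM60A, 10.21 against 9.87 for SDS3). The third, 222099_s_at, gave 1.11 and 1.18, and its SDS3 controls were spread from 7.89 to 8.59. CLIC4 likewise gave 1.22 and 1.17 on 201559_s_at. On 221881_s_at it gave 0.13 (SE 0.0755) for FAM60A, with overlapping arrays, and 0.51 (SE 0.0849) for SDS3. The gap between the knockdowns on the brightest CLIC4 probe set was thus absent from 201559_s_at.

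**Figure D3:**
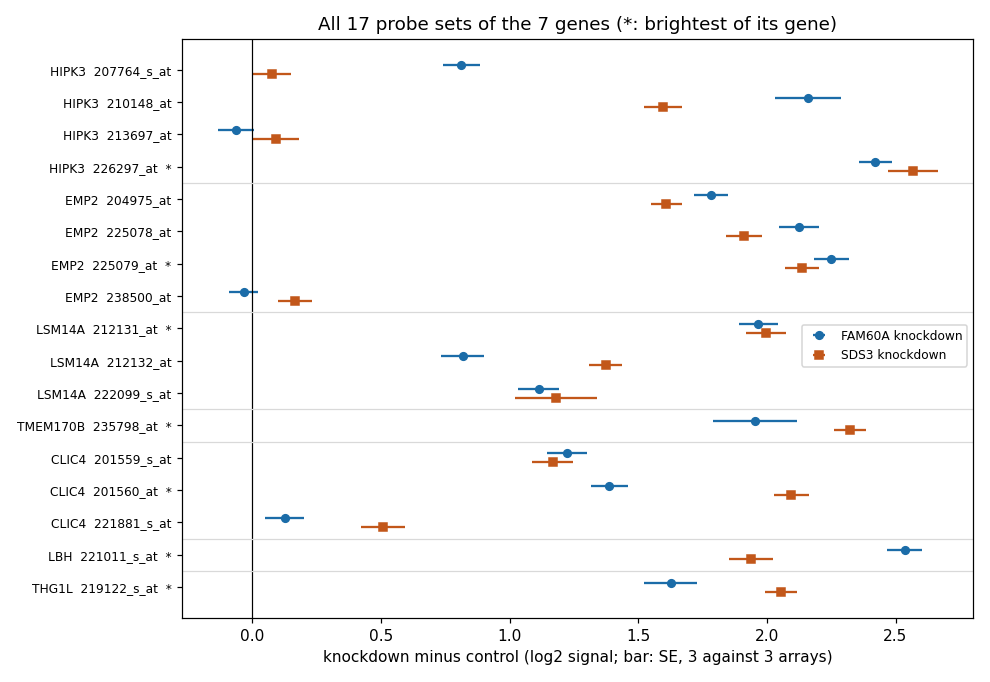
Log2 difference, knockdown minus control, of each of the 17 probe sets of the listed genes (rows), with bars of 1 SE from 3 against 3 arrays; an asterisk marks the brightest probe set of a gene. HIPK3 213697_at and EMP2 238500_at stay within 0.17 of 0, while 226297_at and 225079_at of the same genes exceed 2.

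Paralogues of the listed genes changed in both directions. They did not enter the choice of genes, and 12 of 14 listed could be tested. With FAM60A depletion 4 rose and 4 fell (limma, adjusted p under 0.05), and with SDS3 depletion 5 rose and 2 fell. Over all tested genes 36.8% passed with FAM60A depletion and 34.6% with SDS3 depletion: 19.2% rose and 17.6% fell with FAM60A depletion, and 15.8% rose and 18.8% fell with SDS3 depletion. The median log2 change of the paralogues was -0.056 and 0.095, beside -0.023 and 0.0064 over all genes.

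HIPK1, a close relative of HIPK2 and HIPK3, rose by 0.45 on the log2 scale (SE 0.0658, limma adjusted p = 0.000288) and 0.58 (SE 0.0621, adjusted p = 0.000155). The first call was lost with the mean of all probe sets (log2 change 0.13) and the second with spike-in scaling (0.29), and was 0.22 with that mean. HIPK2, a kinase of the DNA damage response, rose by 0.17 with FAM60A depletion (limma adjusted p = 0.0425), a call lost without any 1 of 5 of the 6 arrays, all but FAM60A control replicate 3 (adjusted p 0.0669 to 0.145). It fell by 0.34 with SDS3 depletion (limma adjusted p = 0.00306), and both HIPK2 calls were lost with the mean of all probe sets. HIPK4 did not pass in either (log2 changes -0.04 and 0.09). Beside EMP2, the related EMP1 fell by 0.28 (limma adjusted p = 0.0168) and by 0.88 (adjusted p = 6.46e-05), with values of -0.0011 and -0.37 for the mean of all probe sets. Without FAM60A control replicate 3 or FAM60A knockdown replicate 3 the first EMP1 call was lost (limma adjusted p 0.0667 and 0.0635). EMP3 rose by 0.29 and 0.25 (limma adjusted p = 0.00415 and 0.00586), and the lens gene LIM2 did not pass (-0.08 and 0.10).

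The single paralogues of LSM14A and TMEM170B went the other way with FAM60A depletion. LSM14B, which like LSM14A binds RNA in P-bodies, fell by 0.91 (SE 0.0681, limma adjusted p = 2.44e-06; -0.26 with the mean of all probe sets) and had a log2 change of -0.0025 with SDS3 depletion (adjusted p = 0.978). TMEM170A fell by 0.40 (SE 0.0539, limma adjusted p = 0.000159) and had 0.02 with SDS3 depletion (adjusted p = 0.842). Both differences between the knockdowns passed limma (adjusted p = 4.39e-06 and 0.00228), a test that 25.3% of all genes passed. Subunit, experiment and depth of depletion cannot be told apart in such differences.

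Of the chloride intracellular channel genes, CLIC3 rose with CLIC4, by 1.17 (SE 0.104, limma adjusted p = 8.62e-06) and 0.52 (SE 0.0827, adjusted p = 0.00133). CLIC1 and CLIC6 rose with SDS3 depletion by 0.19 and 0.26 (limma adjusted p = 0.0259 and 0.037), and CLIC5 fell by 0.22 with FAM60A depletion (adjusted p = 0.0315). The CLIC1 call was lost without SDS3 control replicate 1 or 2 or SDS3 knockdown replicate 1 or 2 (limma adjusted p 0.057 to 0.0862). The CLIC6 call was lost without SDS3 control replicate 1 or 3 or SDS3 knockdown replicate 1 or 2 (limma adjusted p 0.0518 to 0.113). The CLIC5 call was lost without any 1 of the 6 arrays but FAM60A knockdown replicate 3 (limma adjusted p 0.0524 to 0.109). With spike-in scaling the SDS3 call of CLIC3 (0.24) and the FAM60A call of EMP3 (0.20) were lost. With arrays scaled to spike-in probe sets, the SDS3 changes of CLIC1, CLIC6 and EMP3 turned to -0.10, -0.02 and -0.04.

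Genes beside the listed ones on the chromosome were measured independently of the listing. Of the 14 nearest tested genes, 1 on each side of each listed gene in RefSeq's GRCh38.p14 gene table, 6 rose and 1 fell with FAM60A depletion and 4 rose and none fell with SDS3 depletion (limma; at an unadjusted p under 0.05, 5 were higher and 0 lower with SDS3 depletion). Over all tested genes 19.2% rose and 17.6% fell with FAM60A depletion, and 15.8% rose and 18.8% fell with SDS3 depletion. The gene that follows HIPK3, KIAA1549L, had the largest change among the neighbours in both. Its log2 signal went from 7.48 ± 0.105 (SD, n = 3) to 9.08 ± 0.0724 with FAM60A depletion, a rise of 1.60 (SE 0.0685, limma adjusted p = 6.36e-08). With SDS3 depletion it went from 7.98 ± 0.148 to 9.46 ± 0.0997, a rise of 1.49 (SE 0.0845, limma adjusted p = 5.78e-06). The mean of all its probe sets gave 0.99 and 1.14, both passing. CSTF3, a cleavage stimulation factor gene on the other side of HIPK3, rose by 0.26 and 0.33 (limma adjusted p = 0.00492 and 0.00139).

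YPEL5, before LBH, rose by 0.72 (SE 0.0574, limma adjusted p = 3.91e-06) and 0.69 (SE 0.0642, adjusted p = 6.79e-05), the second 0.41 with spike-in scaling. NEDD9, a focal adhesion scaffold gene before TMEM170B, rose by 0.31 and 0.42 (limma adjusted p = 0.0089 and 0.000322). Around LSM14A, KCTD15 rose by 0.27 and GARRE1 by 0.44 with FAM60A depletion (limma adjusted p = 0.00329 and 0.000201), beside 0.02 and 0.03 with SDS3 depletion. LSM11, a histone pre-mRNA processing gene after THG1L, fell by 0.49 with FAM60A depletion (limma adjusted p = 0.0002) and had 0.06 with SDS3 depletion. With the mean of all probe sets the FAM60A values of NEDD9 and LSM11 were 0.14 and -0.24, NEDD9 was not called in SDS3 (0.17), and KCTD15 was not called in FAM60A (0.12). The other 7 neighbours, ATF7IP2 and TEKT5 of EMP2, SRRM1 and RUNX3 of CLIC4, ADTRP of TMEM170B, LINC01936 of LBH and SOX30 of THG1L, did not pass in either knockdown. With spike-in scaling the calls of CSTF3 and NEDD9 were lost in both knockdowns and that of KCTD15 with FAM60A depletion.

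**Figure D4:**
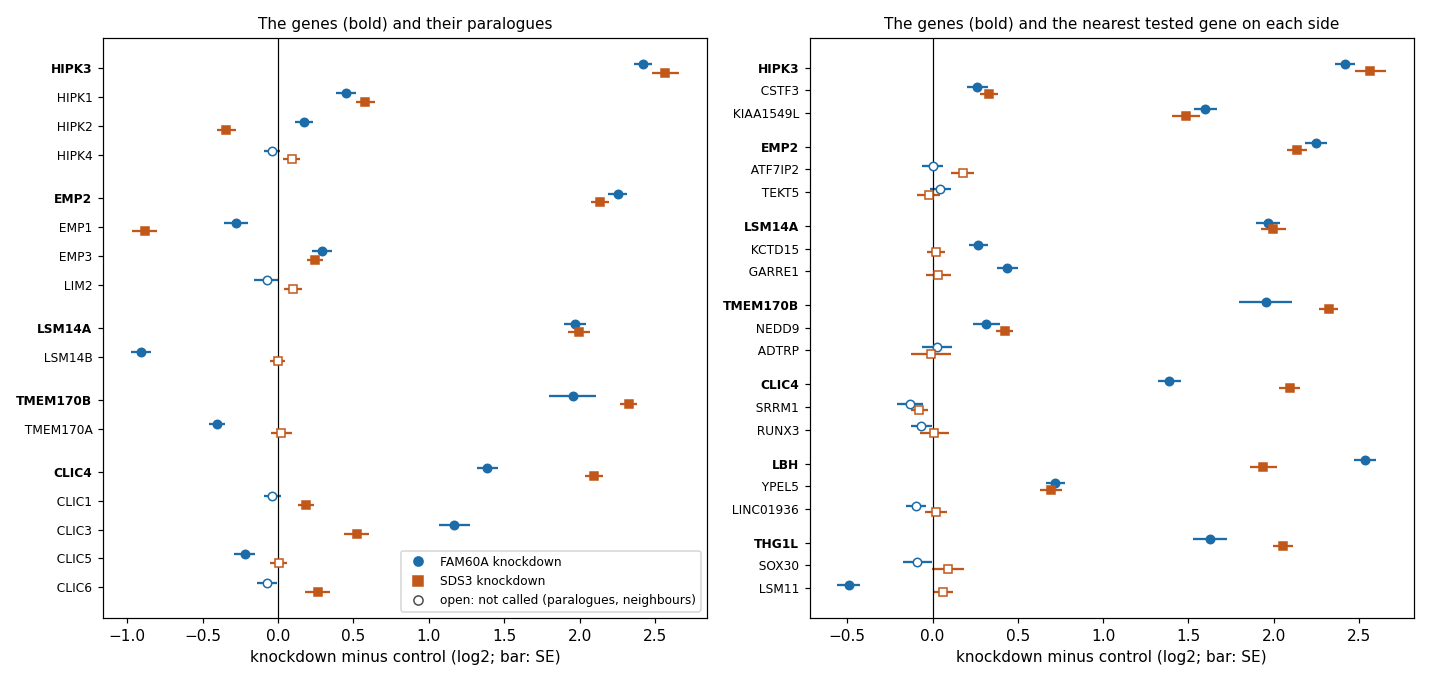
Log2 difference, knockdown minus control, with bars of 1 SE, for the listed genes (bold) with their tested paralogues on the left and their nearest tested chromosomal neighbours on the right; filled symbols of paralogues and neighbours passed limma at an adjusted p under 0.05. LSM14B and TMEM170A lie at -0.91 and -0.40 with FAM60A depletion, and KIAA1549L at 1.60 and 1.49 is the neighbour farthest to the right.

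Partner genes of the listed ones were counted in 6 lists of 72 tested genes, of which 14 rose and 19 fell in each knockdown (limma). The median change was -0.05 with FAM60A depletion and -0.03 with SDS3 depletion. Among all tested genes, 19.2% rose and 17.6% fell with FAM60A depletion, and 15.8% rose and 18.8% fell with SDS3 depletion. The counts of each list below are to be set beside these shares.

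P-body and decapping genes, the partners of LSM14A, were lower in more members than they were higher. Of 17 tested, 9 fell and 2 rose with FAM60A depletion (17.6% and 19.2% of all genes). With SDS3 depletion 7 fell and 2 rose (18.8% and 15.8% of all genes). The medians were -0.25 and -0.11. The decapping enzyme gene DCP2 fell by 1.13 (SE 0.0923, limma adjusted p = 4.71e-06; -0.51 with the mean of all probe sets) with FAM60A depletion and had -0.06 with SDS3 depletion. LSM6, of the LSM ring that binds mRNA tails, fell by 0.93 (SE 0.0678, limma adjusted p = 2.02e-06), beside -0.04. LSM7 of the same ring rose by 0.75 and 1.13 (limma adjusted p = 2.12e-05 and 8.16e-06). LSM5 fell by 0.57 and 0.32 (limma adjusted p = 5.02e-05 and 0.0124), but without probe sets of shared sequence its values were 0.25 and 0.39, and with the mean of all probe sets -0.28 and -0.0073, the second not called.

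WNT target genes, the class that includes LBH, went both ways. Of 13 tested, 2 rose and 3 fell with FAM60A depletion (19.2% and 17.6% of all genes) and 1 rose and 5 fell with SDS3 depletion (15.8% and 18.8%). MYC, a WNT-induced transcription factor gene named after its values were seen, rose by 0.21 and 0.19 (limma adjusted p = 0.0148 and 0.0373). RNF43, a receptor-degrading feedback gene, fell by 1.08 and 0.46 (limma adjusted p = 6.02e-06 and 0.00118). The antagonist gene DKK1 fell by 0.35 and 0.66 (limma adjusted p = 0.000581 and 2.44e-05), and AXIN2, a widely used readout of the pathway, fell by 0.22 and 0.69 (adjusted p = 0.0301 and 0.000417). The first AXIN2 call was lost without 1 or another of 4 arrays (FAM60A control replicates 1 and 3, FAM60A knockdown replicates 1 and 2; limma adjusted p 0.0622 to 0.105). It was also lost with the mean of all probe sets (-0.085, limma adjusted p = 0.195), with spike-in scaling (adjusted p = 0.0738) and with 12 arrays in 1 fit (adjusted p = 0.0518), and that mean gave -0.17 for SDS3. ZNRF3, the partner of RNF43, rose by 0.45 and fell by 0.25 (limma adjusted p = 0.000321 and 0.00501).

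Among 9 adhesion and caveola genes linked to EMP2, 3 rose and none fell with FAM60A depletion and 3 rose and 2 fell with SDS3 depletion (limma). At an unadjusted p under 0.05, 1 of them (PTK2, the focal adhesion kinase gene) was lower with FAM60A depletion. The caveola coat gene CAVIN1 rose by 0.71 and 0.70 (limma adjusted p = 2.12e-06 and 2.27e-05). The kinase gene SRC rose by 0.36 and fell by 0.43 (limma adjusted p = 0.00631 and 0.00807). The integrin gene ITGB5 rose by 0.38 with FAM60A depletion and ITGAV by 0.38 with SDS3 depletion (limma adjusted p = 0.000249 and 0.00389). With spike-in scaling the FAM60A calls of SRC (0.27) and ITGB5 (0.29) and the SDS3 call of ITGAV (0.09) were lost, and SRC was also lost with the mean of all probe sets (0.10). Without probe sets of shared sequence ITGB5 rose by 0.86 with FAM60A depletion and by 0.25 with SDS3 depletion (limma adjusted p = 1.02e-05 and 0.0423), and with the mean it was called in SDS3 as well (0.15, adjusted p = 0.0359). CAVIN1 was 0.41 in SDS3 with spike-in scaling.

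Of 10 actin and membrane linker genes set beside CLIC4, 1 rose and 1 fell with FAM60A depletion and 3 rose and 2 fell with SDS3 depletion. Radixin (RDX) rose by 0.98 and 0.52 (limma adjusted p = 4.55e-07 and 0.000296), though the mean of its probe sets gave 0.57 and -0.06. Moesin (MSN) rose by 0.31 with SDS3 depletion, the scaffold gene NHERF1 fell by 0.33 and 0.35, and the endosomal recycling gene EHD1 fell by 0.32 with SDS3 depletion (limma adjusted p = 0.00138, 0.0024, 0.00233 and 0.0105). With spike-in scaling the SDS3 calls of RDX (0.24) and MSN (0.02) were lost, and EHD1 was -0.20 in SDS3 with the mean of all probe sets.

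Genes of tRNA 5' ends and histidine tRNA, set beside THG1L, went both ways. Of 14 tested, 4 rose and 5 fell with FAM60A depletion and 2 rose and 3 fell with SDS3 depletion. The RNase P subunit genes RPP30 (-0.56 and -0.32) and POP5 (-0.26 and -0.54) fell and POP1 rose (0.35 and 0.40), all passing limma in both, and RPP40 rose by 0.37 with FAM60A depletion. The RPP30 values were -0.09, not called, and -0.19 with the mean of all probe sets, and the POP1 and RPP40 calls were lost with spike-in scaling. Of 9 HIPK partners tested, 2 rose and 1 fell with FAM60A depletion and 3 rose and 0 fell with SDS3 depletion (limma; 0 were lower at an unadjusted p under 0.05). WSB1, a ubiquitin ligase adaptor gene, fell by 0.39 and rose by 0.24, but without probe sets of shared sequence its values were -0.17 and -0.13. TLE1 rose by 0.21 in both and SIAH1 by 0.18 and 0.19, calls that were lost with spike-in scaling in FAM60A and turned sign in SDS3. With the mean of all probe sets these calls were lost too (TLE1 0.03 and 0.06, SIAH1 0.10 and 0.14). The SIAH1 calls were lost without any 1 of the 6 arrays but FAM60A knockdown replicate 3 (limma adjusted p 0.0561 to 0.131) and any but SDS3 knockdown replicate 2 (0.0538 to 0.104). The SDS3 call of TLE1 was lost without SDS3 control replicate 2 or 3 or SDS3 knockdown replicate 2 or 3 (limma adjusted p 0.0698 to 0.117).

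The interferon and double-stranded RNA response, of which LSM14A is a known part and which siRNA itself can provoke, was measured with 14 genes. With FAM60A depletion 3 rose and 4 fell, and with SDS3 depletion none rose and 4 fell (limma; at an unadjusted p under 0.05, ISG15 and MX1, or 2 genes, were higher). IFIT3 fell by 0.30 and 1.06 (limma adjusted p = 0.0102 and 1.7e-05). ISG15 rose by 0.46 and OAS3 fell by 0.35 with FAM60A depletion (limma adjusted p = 0.000285 and 0.000382), and IRF7 rose by 0.26 and fell by 0.40 (adjusted p = 0.00597 and 0.00649), the first lost with spike-in scaling. The part of this response in the changes of the 7 genes was not tested.

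Each siRNA lowered its target: SINHCAF changed by -2.69 (SE 0.0778, limma adjusted p = 7.76e-09) with FAM60A depletion, and SUDS3 by -1.58 (SE 0.0777, adjusted p = 3.06e-06) with SDS3 depletion. Median probe set intensity was 186 to 193 in the FAM60A experiment but 96.8 to 98.3 with SDS3 and its controls, so a level is set only against its own controls. The 8 epithelial and NRF2-driven markers of A549 all read above log2 5 on every array. CDH1 ran from 6.91 to 10.67, and its lowest value lay within the range of the other cell types' markers given next. Of 9 measured leukocyte, endothelial and fibroblast markers, CD3E, PECAM1, VWF, PDGFRB, DCN and LUM read at or above log2 5 on all 12 arrays (5.97 to 8.69), LYZ and CDH5 on 6 and PTPRC on 1. Their part in the results was not tested. In the SDS3 knockdown the 18S ribosomal RNA probe sets stood 0.53 higher and the spike-in probe sets 0.29 higher (log2) than in its controls. In the FAM60A knockdown they stood 0.28 and 0.09 higher (exact permutation p = 0.1, 0.1, 0.1 and 0.5, two-sided, 0.1 being the smallest possible). The ACTB 3' minus 5' signal, a sign of RNA integrity, was 0.0893 in the FAM60A controls and -0.0051 in the knockdown (exact permutation p = 0.1), and 0.197 and 0.184 with SDS3 (exact p = 0.7). Scaling to the spike-in probe sets moved the median of all genes to -0.28 with SDS3 depletion and to -0.11 with FAM60A depletion, and the 7 genes then had medians of 1.81 and 1.88. It took the share of calls that were higher from 52.2% to 39.1% for FAM60A and from 45.7% to 6.76% for SDS3. The part of these signals in the changes of the 7 genes was not tested beyond that. Only 3 arrays a group limit the precision of every value.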

How the data were processed

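Per the labels, biotinylated RNA was hybridised to 12 one-colour Affymetrix arrays. The authors deposited linear intensity values summarised by RMA, per the submitters' processing notes, which name no version or settings. The sources used here do not say if the 12 arrays were normalized jointly. Array medians were 186 to 193 in the FAM60A experiment and 96.8 to 98.3 in the SDS3 experiment. The deposited values of the 12 arrays were thus not set to 1 common distribution, which limits the contrast between the knockdowns. Log2 was taken. Of 54675 probe sets, 41097 had 1 gene symbol, 1801 several and 11777 none, and 41043 symbols were updated through RefSeq's GRCh38.p14 gene table. A gene was its brightest probe set over 12 arrays, knockdowns included, so a probe set could be picked because it rose. Genes with at least 3 arrays at log2 5 or more were tested (18621).

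Each knockdown was set against its own controls with limma 3.58.1 in R 4.3.3 (lmFit, eBayes, Benjamini-Hochberg over all genes, threshold 0.05), and the difference between knockdowns was a contrast over 12 arrays. On simulated arrays this recovered 100% of log2 changes of 1 in both comparisons, and 81.2% (FAM60A) and 77.5% (SDS3) of those of 0.5. It also called 4 (FAM60A) and 13 (SDS3) unchanged genes. The simulation changed far fewer genes than were called in the data and drew noise independently, so these rates do not carry over to the data. SEs of single probe sets come from a fit of all probe sets. Promoters were searched in Python 3.11.15.

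The 7 genes and all lists were chosen with earlier results of these data known. Named genes are the listed genes, all tested paralogues and neighbours, up to 4 called genes with the largest change per partner list, the 8 nearest in pattern, the 5 highest unlisted shared rises and both targets. The alternatives were quantile normalization of 12 arrays, median centring, spike-in scaling (27 bacterial control probe sets), no filter or a minimum of log2 7, probe sets of a gene averaged or those of shared sequence dropped, 1 fit of 12 arrays, trend and robust, a replicate block, and each array left out.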

Additional observations from a re-analysis of the deposited data

Results flagged for a closer look

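The 7 listed genes were chosen for rising in both knockdowns, so their shared direction is no finding, and their differences were not tested. Of the named paralogues, neighbours, partners and interferon genes, 29 had changes that differed between the knockdowns (limma contrast over 12 arrays, adjusted p under 0.05). Several of the 29, LSM7 and DKK1 included, still moved the same way in both. Named partners were picked for large changes, so no share is read from the 29. Over all list genes tested it was 30 of 98, and over all genes 25.3%. Each value is the SDS3 change minus the FAM60A change on the log2 scale. Each knockdown was its own experiment with its own intensity level, so subunit and experiment cannot be told apart in these values. Depth of depletion differed too: 15.5% of the SINHCAF signal was left with FAM60A depletion and 33.4% of the SUDS3 signal with SDS3 depletion. Differences of single genes were not rerun under the alternative processing.

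Among paralogues it was 0.91 for LSM14B, 0.43 for TMEM170A, 0.34 for CLIC6 and 0.23 for CLIC1. It was -0.52 for HIPK2, -0.60 for EMP1 and -0.65 for CLIC3. Among neighbours it was 0.55 for LSM11, -0.40 for GARRE1 and -0.25 for KCTD15.

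The P-body genes DCP2, LSM6 and LSM7 gave 1.07, 0.89 and 0.38. For the WNT target genes it was 0.62 for RNF43, -0.32 for DKK1, -0.47 for AXIN2 and -0.70 for ZNRF3. The EMP2-linked genes gave 0.40 for ITGAV, -0.29 for ITGB5 and -0.79 for SRC. WSB1 of the HIPK partners had 0.63, though without probe sets of shared sequence its changes were -0.17 (FAM60A) and -0.13 (SDS3). The linker genes RDX and EHD1 had -0.46 and -0.37. The RNase P genes RPP30 and POP5 had 0.24 and -0.28. Of the interferon genes, OAS3 had 0.22, ISG15 -0.28, IRF7 -0.66 and IFIT3 -0.76.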

How the results depend on the processing

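No listed gene changed direction under any of the 16 alternatives run for each knockdown, though the filters, the fit of 12 arrays, trend and robust, and the replicate block leave the differences as they are by construction. The median change of the 7 with the mean of all probe sets was 1.53 (FAM60A) and 1.52 (SDS3), and with spike-in scaling 1.81 (SDS3). Without 1 array at a time it ran from 1.89 to 2.15 for FAM60A, the highest without FAM60A knockdown replicate 1. Spike-in scaling lowered the calls from 6855 to 3857 for FAM60A and from 4716 to 2669 for the difference between knockdowns (higher share 39.5% to 8.58%), and the list genes called from 48 to 29 for FAM60A. For SDS3 it raised them, from 6439 to 8789 genes (594 higher, 8195 lower) and from 44 to 50 list genes. This scaling subtracts the knockdown's spike-in difference from every log2 change alike, 0.29 for SDS3 and 0.09 for FAM60A. Downward SDS3 changes grew by that amount, for HIPK2 to -0.63 and SRC to -0.72, and small upward ones turned sign. Why the spike-in signals differed was not tested. Calls turned sign for SIAH1 (-0.10), TLE1 (-0.076), WSB1 (-0.047), CLIC1 (-0.10), CLIC6 (-0.023) and EMP3 (-0.041) in SDS3 with spike-in scaling. WSB1 (-0.13) and LSM5 (0.39) in SDS3 and LSM5 (0.25) in FAM60A turned without shared-sequence probe sets. With the mean of all probe sets RDX turned to -0.056 in SDS3, and RUNX3, uncalled before, gave 0.27 in FAM60A. Over named genes other than the 7, called or not, 1624 values kept their side of the threshold, 85 lost a call and 22 gained one. Another 11 turned sign and were called before or after. Values that turned sign but were called in neither setting are among the 1624, such as SUDS3 in FAM60A (0.04 to -0.05 with spike-in scaling). Same-numbered arrays did not deviate together (correlations -0.118 to 0.0343), so no pairing by number was visible. So few pairs cannot show that the numbers do not pair them. With a replicate block 6239, 5848 and 4003 genes were called (FAM60A, SDS3, difference) and 44 and 40 of the list genes.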
